A study of Homo sapiens with 6 samples.

Results

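The 3′ splice site of a human intron is read by SF1 and U2AF before the U2 small nuclear ribonucleoprotein (U2 snRNP) settles on the branch point. The mRNAs followed here code for 10 proteins of that step: SF1, the U2AF subunits U2AF1 and U2AF2, the SF3a subunits SF3A1, SF3A2 and SF3A3, and the SF3b subunits SF3B1, SF3B2, SF3B3 and SF3B4. They were chosen as a fixed list of 11 Ensembl transcript IDs, 2 of them for U2AF1, and all 11 were found among the 203028 transcripts of every library. The gene names came with that list, since the deposited tables hold transcript IDs only. Each value is therefore that of 1 transcript, and other transcripts of the same gene were not analysed here.

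The samples were HEK293, an established human embryonic kidney cell line, transduced with lentivirus and selected with puromycin in both groups. There were 3 libraries of cells carrying shRNA against PRPF39 and 3 libraries of cells carrying a scrambled control shRNA. PRPF39 works with the U1 small nuclear ribonucleoprotein, the particle that binds 5′ splice sites. The study asked how its depletion alters gene expression and alternative splicing. Whether replicates were separate transductions or cultures is not stated, so each p-value reflects library-to-library spread that may be technical only. PRPF39 itself and markers of the cell line were not analysed here, because no source used here pairs their transcript IDs with names, so the depletion behind the labels was not checked.

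As background, SF1 binds the branch point sequence, U2AF2 binds the polypyrimidine tract, and U2AF1 contacts the AG at the end of the intron. The SF3a and SF3b complexes are the protein parts of U2 snRNP that hold it on the branch point, and SF1 leaves when they arrive. SF3B1, SF3B3 and SF3B2 form large parts of SF3b, with SF3B1 gripping the branch helix, and SF3B1 and U2AF1 are mutated recurrently in myeloid neoplasms. PRPF39 acts at the opposite end of the intron.

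All 11 transcripts were well covered. Library totals ran from 113747941 to 246491084 estimated counts for PRPF39 shRNA and from 158588987 to 165751423 for control shRNA. A member held between 4083 and 104292 estimated reads in a library, so that counting error alone was at most 1.56%. That figure leaves out error from dividing reads among similar transcripts, and its lowest count is of a U2AF1 transcript. Mean abundance ran from 41.6 to 429 CPM (counts per 1000000, scaled with TMM factors), every member passed the low-count filter, and every one stood above at least 96.3% of the tested transcripts in mean TPM (transcripts per 1000000, which allows for length).

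None of the 11 transcripts was called between the groups when all 97571 transcripts were tested together (quasi-likelihood test of edgeR, called at a Benjamini-Hochberg adjusted p under 0.05), where 0.904% of transcripts were called. The lowest adjusted p was 0.107, for SF3B3 (edgeR). At an unadjusted p under 0.05 there were 6 of the 11, against 34.5% of the transcripts that averaged at least 5 CPM. With DESeq2 on the same transcripts 6 of the 11 were called, where 9.25% of all transcripts and 26% of those with at least 5 CPM were. Of these 6, SF1, SF3A3, SF3B4 and ENST00000291552 of U2AF1 were the 4 higher, against 5.02% of all transcripts. SF3B3 and SF3A2 were the 2 lower, against 4.23%. These shares by direction include transcripts of low count, and none was computed among those with at least 5 CPM. With limma-voom 0 were called, where 0.898% were. At an unadjusted p under 0.05 (limma-voom) there were 6 of the 11, and 17547 of all 97571 transcripts. No such limma-voom share was computed among those with at least 5 CPM. Tested only among the 20223 transcripts that averaged at least 5 CPM, 3 of the 11 were called by edgeR. One U2AF1 transcript was higher, and the SF3B3 and SF3A2 transcripts were lower with PRPF39 shRNA. The scaling factors were computed anew for that test. The log2 fold changes of all 11 were lower there than in the fit over all transcripts. Of all transcripts in that test 17.7% were called, 8.55% higher and 9.12% lower. Whether 3 of 11, or the other counts of members given here, differ from their shares was not tested. These counts alone therefore do not set the list apart. With the replicate number as a block 2 of the 11 remained (16.7% of all transcripts called), SF3B3 and ENST00000291552 of U2AF1, and with the block over all 97571 transcripts 0 of the 11 were called, as were 0% of all. These 3 calls each depended on the libraries used, as given below for each.

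Most of the differences were small, and the largest in size was 1.60-fold, for ENST00000291552 of U2AF1. Bulk RNA was sequenced, so a level that differs in every cell and one that differs in some cells cannot be told apart. The median log2 fold change of the 11 was 0.09, against 0.05 over the transcripts of at least 5 CPM, and the median size without sign was 0.24, against 0.25. The fold change is PRPF39 shRNA over control shRNA throughout. In CPM, 7 of the 11 had no overlap between the groups, 5 with PRPF39 shRNA above and 2 below, where 25.3% of all tested transcripts and 40.9% of those with at least 5 CPM had none. In TPM, 4 of the 11 had no overlap, with SF3A3 and ENST00000291552 of U2AF1 above and SF3B3 and SF3A2 below. No share over other transcripts was computed in TPM, so that count cannot be set against a background. In CPM, of the transcripts with at least 5 CPM, 24% had PRPF39 shRNA above and 17% below.

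**Figure D1:**
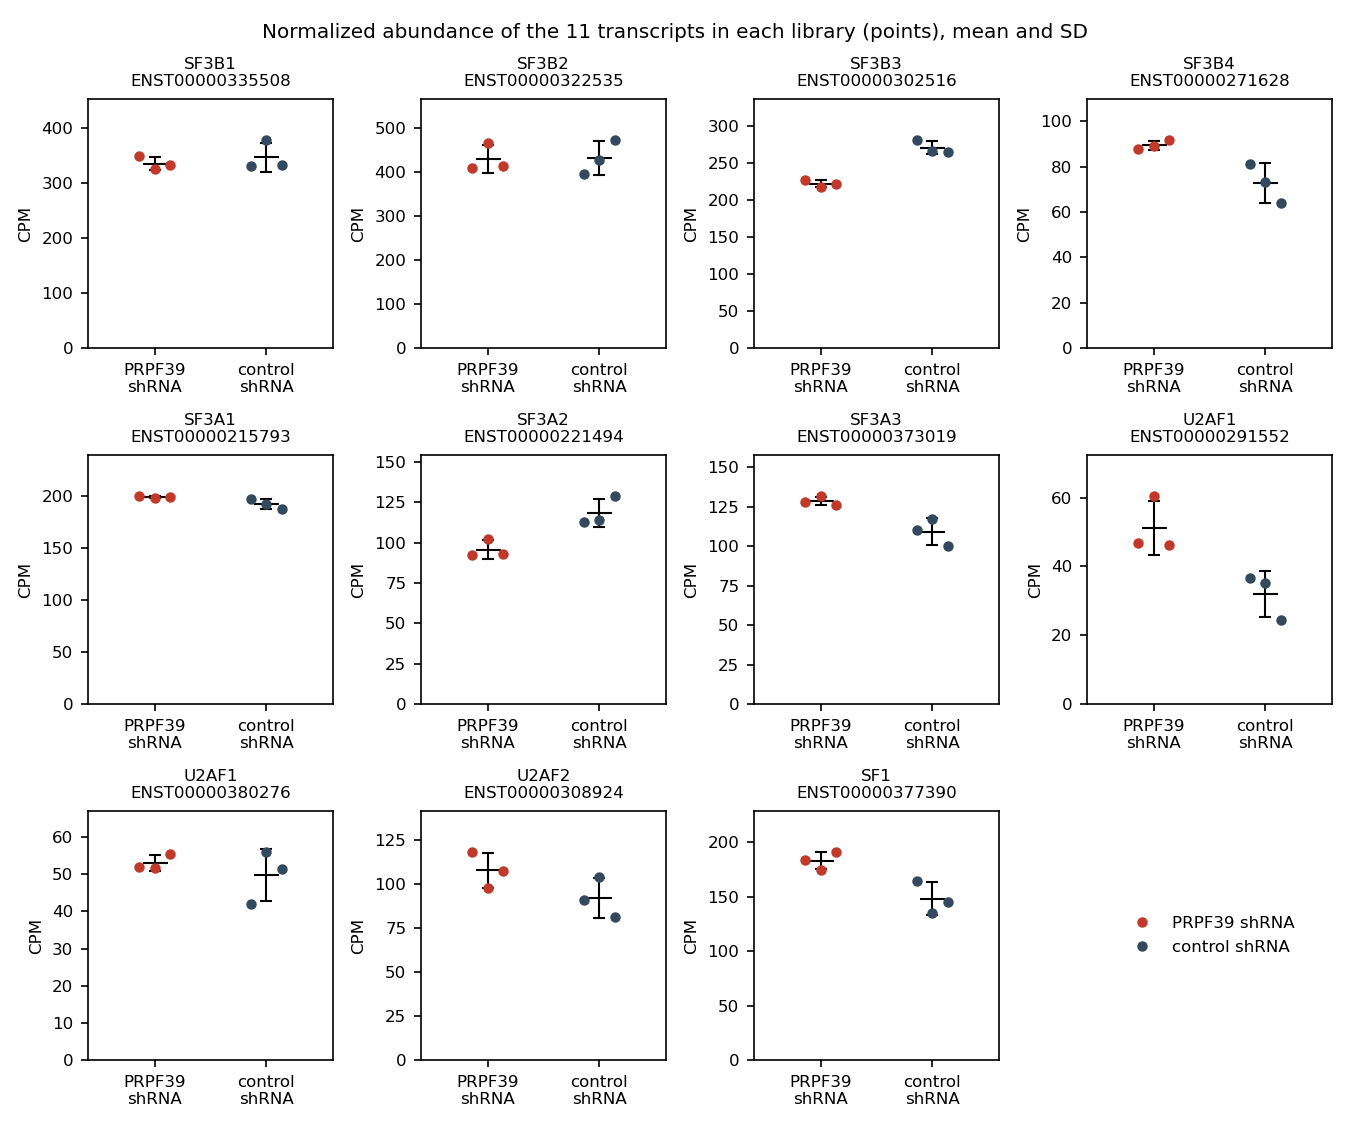
Normalized abundance in CPM (vertical axis, from 0) of the 11 transcripts in each library, with PRPF39 shRNA libraries in red and control shRNA libraries in dark blue, and the mean and SD of the 3 libraries in black. SF3B3 and SF3A2 sit lower in all 3 PRPF39 shRNA libraries, SF3B4, SF3A1, SF3A3, SF1 and the first U2AF1 transcript sit higher, and SF3B1, SF3B2, U2AF2 and the second U2AF1 transcript overlap.

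SF1, the branch point binding protein, is encoded on chromosome 11 (64764606 to 64778542, GRCh38.p14). Its transcript ENST00000377390 (3470 bases) stood at 57.0, 52.4 and 62.0 TPM in PRPF39 shRNA replicates 1, 2 and 3, against 55.8, 36.9 and 43.9 TPM in control shRNA replicates 1, 2 and 3. In TPM, control replicate 1 lay within the range of the PRPF39 shRNA libraries and the other control libraries lay below it. In CPM the groups did not overlap, at 183, 175 and 190 in PRPF39 shRNA libraries, against 165, 134 and 145 in control shRNA libraries. The log2 fold change was 0.31 ± 0.09 (SE), with an adjusted p of 0.191 (edgeR), and in the test of transcripts with at least 5 CPM the adjusted p was 0.126 (edgeR). DESeq2 called it higher, with an adjusted p of 0.0218.

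U2AF2, the large subunit that binds the polypyrimidine tract, lies on chromosome 19 (55655035 to 55674716, GRCh38.p14). Transcript ENST00000308924 (1698 bases) had 60.8, 48.6 and 57.8 TPM in PRPF39 shRNA libraries, against 51.8, 47.4 and 41.2 TPM in control shRNA libraries. The groups overlapped, through PRPF39 shRNA replicate 2 and control replicate 1. The log2 fold change was 0.23 ± 0.12 (SE, adjusted p = 0.409, edgeR), and its 95% interval of -0.05 to 0.51 includes no change as well as a rise of 1.42-fold.

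U2AF1, the small subunit, lies on chromosome 21 (43092956 to 43107578, GRCh38.p14), and 2 of its transcripts were listed. ENST00000291552 (962 bases) had 58.9, 73.4 and 60.8 TPM in PRPF39 shRNA libraries, against 50.5, 38.9 and 30.4 TPM in control shRNA libraries. All 3 PRPF39 shRNA libraries were above all 3 control libraries. Its mean was 64.4 ± 7.87 TPM with PRPF39 shRNA and 40.0 ± 10.1 TPM with control shRNA (SD, n = 3 each). The log2 fold change of 0.68 ± 0.18 (SE), 1.60-fold with a 95% interval of 1.18 to 2.17, was the largest of the 11 in size (adjusted p = 0.152, edgeR). Among transcripts of at least 5 CPM its adjusted p was 0.0340 (edgeR), and there it passed also without control replicate 1 (0.0275, edgeR) and did not pass without any other single library (0.0544 to 0.0941, edgeR).

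ENST00000380276 (940 bases), the other U2AF1 transcript, had 64.1, 61.7 and 71.2 TPM in PRPF39 shRNA libraries, against 57.3, 60.9 and 62.6 TPM in control shRNA libraries. The groups overlapped by 1 library on each side. Its log2 fold change was 0.09 ± 0.12 (SE, adjusted p = 0.777, edgeR), with a 95% interval of -0.19 to 0.37, and it turned to -0.014 without control replicate 1.

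The share of ENST00000380276 in the summed TPM of both U2AF1 transcripts was 52.1%, 45.7% and 53.9% in PRPF39 shRNA libraries, against 53.1%, 61.0% and 67.3% in control shRNA libraries. The mean was 50.6% ± 4.35 with PRPF39 shRNA and 60.5% ± 7.11 with control shRNA (SD, n = 3 each), a difference of -9.92 percentage points. The groups overlapped, because control replicate 1 was below PRPF39 shRNA replicate 3. The exact two-sided permutation p was 0.2, and 3 libraries against 3 cannot give less than 0.1. The difference was -6.5 percentage points without control replicate 3 and -13.6 without control replicate 1.

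Both transcripts together, a sum added after the values had been seen, reached 123, 135 and 132 TPM in PRPF39 shRNA libraries, against 108, 99.8 and 93.0 TPM in control shRNA libraries. The groups were apart in the sum, which depends little on how reads shared by the 2 transcripts were divided between them. Entered in the fit as 1 row, the sum had a log2 fold change of 0.35 ± 0.10 (SE, adjusted p = 0.165, edgeR). Among transcripts of at least 5 CPM it was 0.30 ± 0.09 (SE, adjusted p = 0.0469, edgeR). GRCh38 holds a near-identical copy of U2AF1, LOC102724594 or U2AF1L5, on chromosome 21 from 6484623 to 6499248, and reads divided with it cannot be told apart here, so the U2AF1 levels are uncertain in size.

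**Figure D2:**
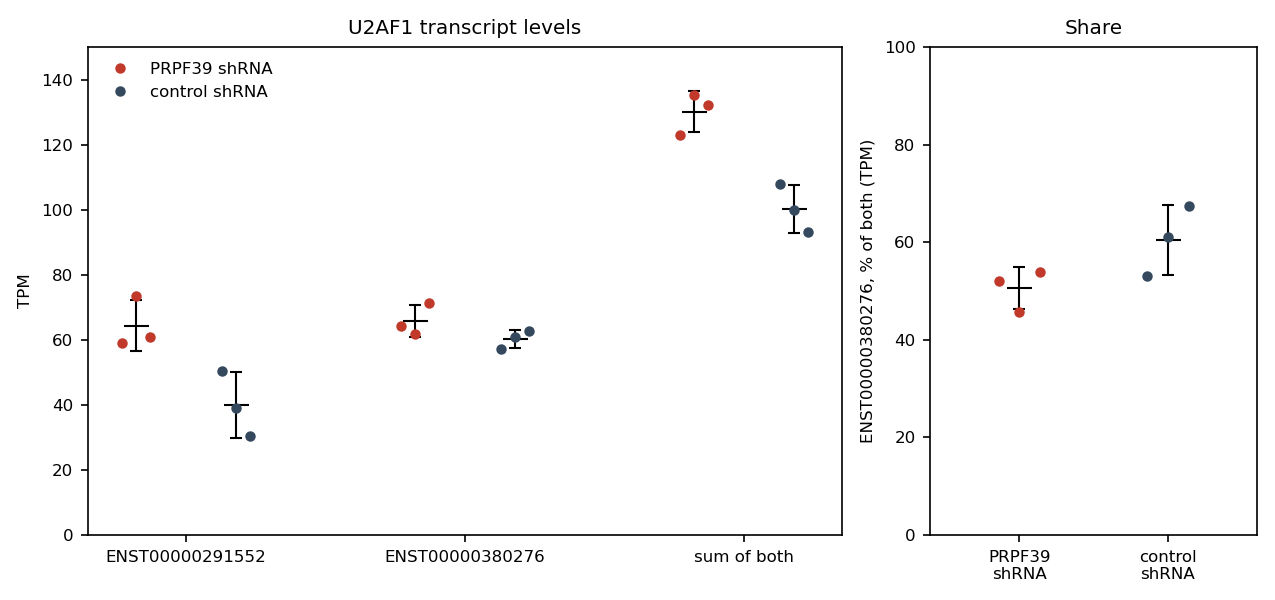
TPM of the U2AF1 transcripts and of their sum (left, vertical axis from 0) and the share of ENST00000380276 in that sum in percent (right), with PRPF39 shRNA libraries in red, control shRNA libraries in dark blue, and mean and SD in black. The sum is 123 to 135 TPM with PRPF39 shRNA and 93.0 to 108 TPM with control shRNA, and the share overlaps between the groups.

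Within SF3a, each ratio between subunits was apart between the 2 groups in TPM. These ratios, given below, were formed after the values had been seen and carry no test. SF3A1, the subunit that binds both of the others, lies on chromosome 22 (30331988 to 30356894, GRCh38.p14). Its transcript ENST00000215793 (5143 bases) had 45.8, 43.8 and 47.9 TPM in PRPF39 shRNA libraries, against 49.6, 38.7 and 42.1 TPM in control shRNA libraries. Between groups the log2 difference was 0.05 ± 0.06 (SE, adjusted p = 0.767, edgeR), with a 95% interval of 0.933-fold to 1.15-fold. It became -0.00029 among transcripts of at least 5 CPM. In CPM its groups did not overlap, although the difference was only 1.03-fold.

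SF3A2 lies on chromosome 19 (2236824 to 2248655, GRCh38.p14), and its product contacts the branch point region as part of SF3a. Transcript ENST00000221494 (1963 bases) had 41.7, 45.0 and 43.7 TPM in PRPF39 shRNA libraries, against 55.4, 45.8 and 56.6 TPM in control shRNA libraries. All PRPF39 shRNA libraries were lower, and in TPM the gap to control replicate 2 was small. In CPM they were 92.1, 102 and 92.8, against 113, 114 and 129 in control shRNA libraries. The log2 fold change was -0.31 ± 0.09 (SE, adjusted p = 0.166, edgeR). Among transcripts of at least 5 CPM it was -0.36 ± 0.10 (SE, adjusted p = 0.0451, edgeR), and of the 6 fits that leave out a library it passed only in that without control replicate 1 (0.0463, edgeR), with 0.0571 to 0.149 in the others (edgeR). With the replicate number as a block in that test its adjusted p was 0.0635 (edgeR).

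SF3A3, the counterpart of yeast Prp9, lies on chromosome 1 (37956975 to 37990022, GRCh38.p14). Transcript ENST00000373019 (3673 bases) had 42.7, 42.3 and 43.9 TPM in PRPF39 shRNA libraries, against 40.2, 34.4 and 32.6 TPM in control shRNA libraries. All PRPF39 shRNA libraries were higher and within 2 TPM of each other. SF3A3 had a log2 fold change of 0.24 ± 0.08 (SE, adjusted p = 0.228, edgeR). It did not pass among transcripts of at least 5 CPM either (adjusted p = 0.101, edgeR), and DESeq2 called it higher (adjusted p = 0.0341).

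SF3B1, the subunit that clamps the branch helix, lies on chromosome 2 (197389784 to 197435093, GRCh38.p14). Transcript ENST00000335508 (6526 bases) had 87.0, 78.0 and 85.9 TPM in PRPF39 shRNA libraries, against 89.6, 82.5 and 80.1 TPM in control shRNA libraries. The groups lay on top of each other. SF3B1 had a log2 fold change of -0.05 ± 0.08 (SE, adjusted p = 0.832, edgeR), and the 95% interval of 0.848-fold to 1.10-fold includes no change.

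SF3B2, which binds SF3B4 and lies on chromosome 11 (66052364 to 66069308, GRCh38.p14), gave the highest level of the list. Transcript ENST00000322535 (2903 bases) had 124, 136 and 133 TPM in PRPF39 shRNA libraries, against 133, 115 and 142 TPM in control shRNA libraries. The control values enclosed all 3 PRPF39 shRNA values. SF3B2 had a log2 fold change of -0.01 ± 0.09 (SE, adjusted p = 0.982, edgeR), with a 95% interval of 0.853-fold to 1.16-fold.

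SF3B3 lies on chromosome 16 (70523816 to 70577668, GRCh38.p14) and codes for a scaffold of propeller domains. Transcript ENST00000302516 (9720 bases), the longest of the 11, had 30.5, 28.2 and 31.3 TPM in PRPF39 shRNA libraries, against 41.1, 31.5 and 34.7 TPM in control shRNA libraries. All PRPF39 shRNA libraries were lower, and in TPM the gap to control replicate 2 was small. In CPM they were 228, 218 and 222, against 281, 267 and 265 in control shRNA libraries, a wider gap than in TPM. The log2 fold change was -0.28 ± 0.06 (SE, adjusted p = 0.107, edgeR), a 0.821-fold level with a 95% interval of 0.738 to 0.913. Among transcripts of at least 5 CPM it was -0.33 ± 0.08 (SE, adjusted p = 0.0252, edgeR). Leaving out single libraries, it passed there without control replicate 1 (0.0349, edgeR) and without control replicate 2 (0.0405, edgeR), and otherwise reached 0.0672 to 0.104 (edgeR).

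SF3B4, which contacts RNA just upstream of the branch point, lies on chromosome 1 (149923317 to 149927803, GRCh38.p14). Transcript ENST00000271628 (2085 bases) had 48.2, 47.2 and 52.1 TPM in PRPF39 shRNA libraries, against 48.4, 35.4 and 33.8 TPM in control shRNA libraries. Control replicate 1 stood inside the range of the PRPF39 shRNA libraries in TPM, while in CPM it was 81.2 against 87.8 or more. SF3B4 had a log2 fold change of 0.30 ± 0.10 (SE, adjusted p = 0.228, edgeR). Among transcripts of at least 5 CPM the adjusted p was 0.101 (edgeR), and it was 0.0300 without control replicate 1 (edgeR). DESeq2 called it higher (adjusted p = 0.0415).

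**Figure D3:**
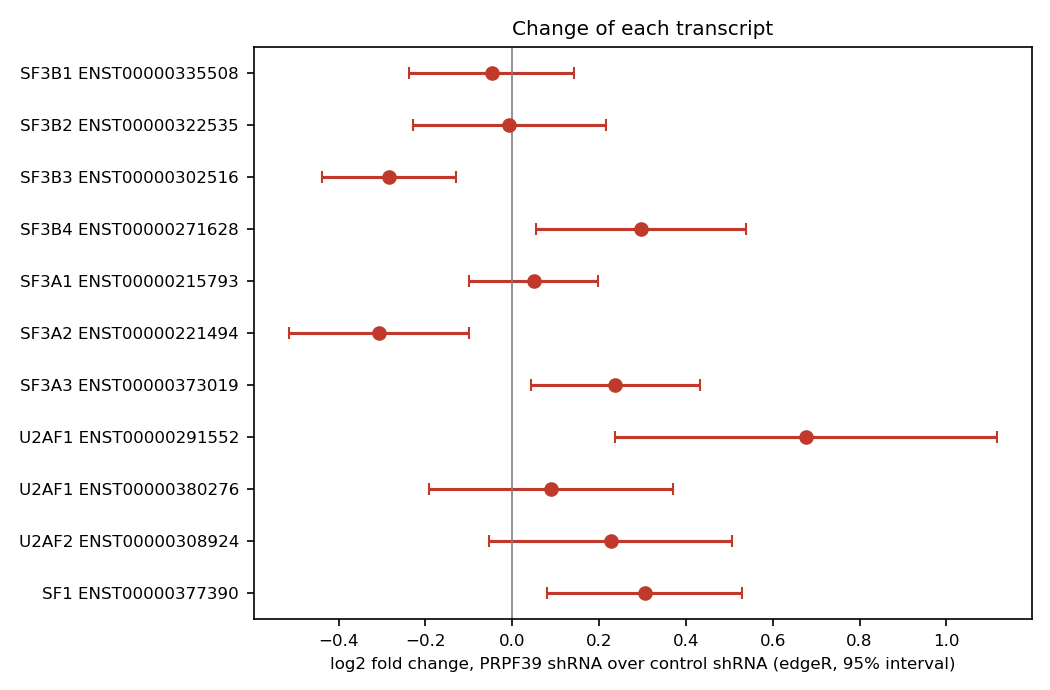
Log2 fold change of each transcript, PRPF39 shRNA over control shRNA (horizontal axis), from edgeR's quasi-likelihood fit over all 97571 transcripts, with 95% intervals as bars. The intervals of SF3B3 and SF3A2 lie below 0, those of SF3B4, SF3A3, SF1 and ENST00000291552 of U2AF1 lie above it, and none of the 11 passed the adjustment over all transcripts.

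The ratio of subunits inside a library needs no scaling between libraries, and all 10 ratios within SF3b, SF3a and U2AF were formed after the members' values had been seen. They are given as a description, without a test. Of the 10, 6 had no overlap between the groups, and each of those 6 involves SF3B3, SF3B4, SF3A2 or SF3A3, so they repeat the differences above. No share over other transcript pairs was computed to set beside that count.

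The SF3A2 to SF3A3 ratio was 0.977, 1.06 and 0.996 in PRPF39 shRNA libraries, against 1.38, 1.33 and 1.74 in control shRNA libraries. The 2 transcripts were thus about equal in TPM with PRPF39 shRNA, while SF3A2 led in every control library. That equality depends on the effective lengths used for TPM. By annotated length SF3A2 ranked above SF3A3 in both groups, at 7 against 10 with PRPF39 shRNA and 2 against 10 with control shRNA. The SF3B3 to SF3B4 ratio was 0.633, 0.597 and 0.600 in PRPF39 shRNA libraries, against 0.850, 0.890 and 1.03 in control shRNA libraries. These were the widest gaps, with the PRPF39 shRNA mean at 0.683 and 0.662 of the control mean. The SF3B1 to SF3B2 ratio overlapped, with 0.700, 0.572 and 0.648 in PRPF39 shRNA libraries against 0.673, 0.718 and 0.565 in control shRNA libraries. The U2AF1 to U2AF2 ratio, with both U2AF1 transcripts summed, overlapped too, at 2.36 ± 0.38 with PRPF39 shRNA and 2.15 ± 0.09 with control shRNA (SD, n = 3 each).

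**Figure D4:**
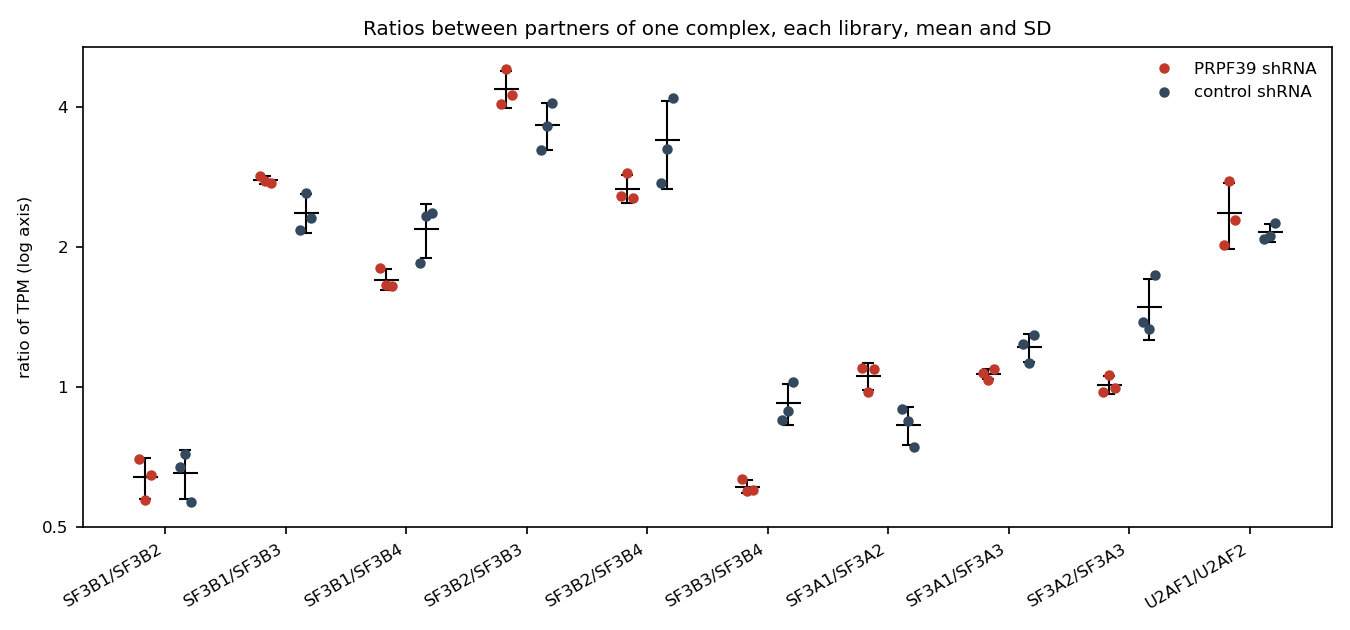
Ratios of TPM between members of 1 complex in each library (log axis), PRPF39 shRNA in red and control shRNA in dark blue, mean and SD in black. SF3A2/SF3A3 and SF3B3/SF3B4 are lower in all 3 PRPF39 shRNA libraries, and SF3B1/SF3B2 and U2AF1/U2AF2 overlap.

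Summed over a complex in TPM, the group means of SF3a and SF3b differed little. The 4 SF3b transcripts held 294 ± 7.03 TPM with PRPF39 shRNA and 289 ± 24.0 TPM with control shRNA (SD, n = 3 each). In CPM the SF3b sum was lower, at 1076 ± 18.2 with PRPF39 shRNA and 1121 ± 29.4 with control shRNA (SD, n = 3 each). The groups overlapped on both scales. The 3 SF3a transcripts held 132 ± 2.81 TPM with PRPF39 shRNA and 132 ± 13.1 TPM with control shRNA (SD, n = 3 each). The 3 U2AF transcripts held 184, 184 and 190 TPM in PRPF39 shRNA libraries, against 160, 147 and 134 TPM in control shRNA libraries, with no overlap. The group means of that sum differed by 38.8 TPM, of which 24.4 TPM came from ENST00000291552 of U2AF1. U2AF2 and ENST00000380276 of U2AF1 each overlapped between the groups. No share over other sums was computed. The sums carry no test. The PRPF39 shRNA libraries lay closer together than the controls in all 3 sums in TPM, but not in the SF3a sum in CPM, where the SD was 7.67 with PRPF39 shRNA and 3.29 with control shRNA.

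The order of the levels in TPM began in both groups with SF3B2, SF3B1 and ENST00000380276 of U2AF1, of which SF3B2 alone kept its place in both groups when annotated lengths were used. SF3B2 averaged 131 ± 6.24 TPM with PRPF39 shRNA and 130 ± 13.7 TPM with control shRNA, and SF3B1 averaged 83.6 ± 4.89 TPM with PRPF39 shRNA and 84.1 ± 4.94 TPM with control shRNA (SD, n = 3 each). In either group both were apart from the next transcript in the order. Below them the order continued with PRPF39 shRNA as ENST00000291552 of U2AF1, SF1, U2AF2, SF3B4, SF3A1, SF3A2, SF3A3 and SF3B3, and neighbours overlapped except that SF3B3 lay apart at the bottom. With control shRNA it continued as SF3A2, U2AF2, SF1, SF3A1, ENST00000291552 of U2AF1, SF3B4, SF3B3 and SF3A3, and all neighbours from SF3A2 downward overlapped. ENST00000291552 thus stood at rank 4 with PRPF39 shRNA and rank 8 with control shRNA, and SF3A2 stood at rank 9 with PRPF39 shRNA and rank 4 with control shRNA. The TPM values use the quantifier's effective lengths, which exceed the transcript length for SF3A2, U2AF2 and SF3B2 among others. By annotated length, 6 of the 11 kept their rank with PRPF39 shRNA and 3 with control shRNA. SF3B1 then stood at rank 6 with PRPF39 shRNA and rank 4 with control shRNA, behind U2AF2 at rank 2 with PRPF39 shRNA and SF3A2 at rank 2 with control shRNA. The order below SF3B2 therefore depends on that correction.

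In TPM, control replicate 1 lay nearest to the PRPF39 shRNA libraries for SF3B4, SF3A3, SF1, U2AF2, ENST00000291552 of U2AF1 and the U2AF1 share, and farthest from them for SF3B3. In CPM, control replicate 2 was instead the highest control library for SF3A3 (117, against 110 in control replicate 1). The same held for U2AF2 (104, against 91.0 in control replicate 1). The part of differences between the control libraries in these results was not tested.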

How the data were processed

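Polyadenylated RNA of 3 PRPF39 shRNA and 3 control shRNA HEK293 samples was quantified per transcript. The authors deposited estimated counts, not scaled for depth or length, and TPM, which are scaled by effective lengths fitted per library and sum to 1000000, per the file headers. Length and effective length are in bases. The submitters' processing notes name Salmon 0.11.1, STAR 2.7.9a, DESeq2 1.32.0 and cutadapt 2.1, and the build hg38; options and annotation release are not given in the sources used here. Salmon divides reads shared by similar transcripts, so a transcript's estimate depends on its relatives.

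Estimated counts were rounded. The test used edgeR 4.0.16 in R 4.3.3, with filterByExpr (minimum count 10), TMM, and the quasi-likelihood test over all 6 libraries without covariate, with Benjamini-Hochberg adjustment over all transcripts tested and a threshold of 0.05. Standard errors were derived from the fold change and F. Alternatives were RLE and upper-quartile scaling, no filter, DESeq2 1.42.0, voom in limma 3.58.1, a floor of 5 CPM on the mean, effective-length offsets, a replicate block and leaving out each library. The script was tested on simulated data. Libraries were compared in pairs, and none was a duplicate (chi-square per degree of freedom at least 31.8). Shares were compared by exact permutation (scipy 1.17.1).

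The members and lists were chosen with earlier results of these data known. The rule was to name all 11 listed transcripts and no others. Gene positions come from RefSeq on GRCh38.p14, where all 10 symbols matched. Planned values for PRPF39 and for other U2 and 3′ splice site genes were not analysed here, since no source used here pairs their IDs with names.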

Additional observations from a re-analysis of the deposited data

How the results depend on the processing

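Over all transcripts, edgeR called 432 higher and 450 lower. The counts were 1729 and 1845 with a mean of at least 5 CPM, 4898 and 4126 with DESeq2, and 0 and 0 with the replicate block (14264 at an unadjusted p under 0.05, edgeR). Without 1 library, 0 to 14 were higher and 0 to 12 lower. Among transcripts of at least 5 CPM the block gave 1564 and 1821, and leaving out 1 library gave 387 to 2048 higher and 487 to 2203 lower. Of the 11 members, 0 were called over all transcripts, also with the block and whichever library was left out, 6 with DESeq2 and 3 with at least 5 CPM. In the last test 2 remained with the block, and 0 to 4 without 1 library. RLE, upper-quartile scaling, limma-voom, no filter and effective-length offsets called none of the 11. Replicate numbers were not treated as pairs: the labels give no shared culture or day, and deviations from the group means correlated at 0.16, 0.03 and 0.00004 for numbers 1, 2 and 3. Pairing by number left the U2AF1 share difference at -9.92 percentage points (exact sign-flip permutation p = 0.25, the smallest 3 pairs allow), and it ran from -13.6 to -6.5 without 1 library.

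The signs of SF3B3, SF3A2, SF3B4, SF3A3, SF1, U2AF2 and ENST00000291552 held in all these fits, and log2 values near 0 turned. SF3B2 (ENST00000322535) was 0.0094 with RLE, 0.0093 with DESeq2 and 0.036 with upper-quartile scaling, and ran from -0.069 to 0.066 without 1 library, or from -0.12 to 0.042 at 5 CPM. SF3A1 (ENST00000215793) was -0.00029 at 5 CPM, 0.00037 there with the block, and -0.032 to 0.021 without 1 library. SF3B1 (ENST00000335508) ran from -0.077 to 0.017 without 1 library. ENST00000380276 ran from -0.014 to 0.18, or from -0.063 to 0.098 at 5 CPM. The cause was not tested. By annotated length, 6 transcripts kept their rank with PRPF39 shRNA and 3 with control shRNA.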
